A study of Mus musculus with 10 samples.

Results

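Regulated exocytosis is the release of stored vesicles and granules on demand, and the genes described here encode its machinery and its granule contents. The set was a list of 39 gene symbols, and every probe set whose only gene symbol was one of them belonged to it. Of the 39 genes 38 were measured, by 83 of 45037 probe sets, and Pcsk2 had no probe set that could be assigned here. These 38 are part of 18193 genes tested. RNA came from urogenital systems of mouse embryos at embryonic day 15.5, in 10 pools of 1 to 2 urogenital systems, each hybridized to its own Affymetrix array. The 5 homozygous pools carried the cneo allele of Wnt9b, a secreted Wnt ligand of the duct epithelium, on both chromosomes (genotype Wnt9bcneo/cneo). The 5 control pools carried 1 cneo and 1 normal allele by their genotype label (Wnt9bcneo/+), although titles of the samples and series use WT for them. The labels state neither what the cneo allele does to the transcript nor the strain, and they name no other allele or agent in either group. The comparison asks which transcripts differ between these genotypes. The labels call the 5 RNA pools of a genotype distinct, and a p-value here rests on how far pools of 1 genotype differ.

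In neurons and endocrine cells, vesicles dock at the plasma membrane, are primed, and fuse when calcium enters. Fusion is driven by SNARE proteins of the vesicle and the plasma membrane, held ready by complexins and triggered by synaptotagmins, which sense calcium. Small clear vesicles hold fast transmitters, while dense-core granules hold granins, peptides and, in sympathetic neurons and adrenal chromaffin cells, catecholamines. In the urogenital system these cells lie in the sympathetic and pelvic ganglia, along nerves, and in the adrenal medulla.

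All values are log2 of the deposited array intensity, with intensities under 16 set to 16, so that 4.00 is the floor. Every array had the same trimmed mean of 500, and 19.9% to 23.0% of probe sets lay at the floor, with every homozygous array (19.9% to 21.1%) below every control array (22.2% to 23.0%). The brighter Wnt9b probe set ran from 5.58 to 7.65 in homozygous and from 6.92 to 7.16 in control pools (limma adjusted p = 0.803), so it does not check the genotype labels. The kidney genes Six2 (10.50 to 12.75) and Wt1 (9.87 to 11.54) were present in all pools. The adrenal cortex enzyme gene Hsd3b1 was at 4.00 and 4.03 in control pools 1 and 2 and between 11.21 and 14.27 in the other 8 pools. RNA integrity, read as the 3' over the middle actin signal, stood apart on 2 arrays: 97.7 for homozygous pool 5 and 94.8 for control pool 1. The other 8 arrays had 9.87 to 33.1. Xist was high in homozygous pools 3, 4 and 5 (13.75 to 14.27) and at most 6.07 in the rest. No control pool had high Xist (5.13 to 5.71). A difference that goes with genotype and one that goes with Xist therefore cannot be fully told apart.

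Across the 38 measured genes, values in homozygous pools were mostly higher, and the difference was widest for the granins and for a few neuronal fusion and docking genes. In 33 of 38 genes the homozygous mean was above the control mean, compared with 50% of all genes, and the median log2 difference was 0.96 against 0.00 over all genes. A difference of 1 or more, a doubling of intensity, was seen in 19 of the 38 genes and in 3.85% of all genes. Homozygous pools all lay above all control pools in 7 of the 38 genes and in 2.61% of all genes. The 7 were Syt11, Doc2b, Cplx1, Rab3a, Rab3c, Syn2 and Syngr3, each read on its brightest probe set. Other probe sets of several of these genes overlapped between the genotypes. By limma with Benjamini-Hochberg adjustment over all genes, 2 members rose, Doc2b and Syn2, none fell and 36 did not pass at an adjusted p of 0.05. Over all genes 0.539% rose by this rule. At an unadjusted p under 0.05, 23 members were higher and 0 lower, against 9.83% of all genes higher. In bulk RNA, more cells of a type and more RNA per cell cannot be told apart. The members were chosen with earlier results of these data known, so these counts are a description.

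**Figure D1:**
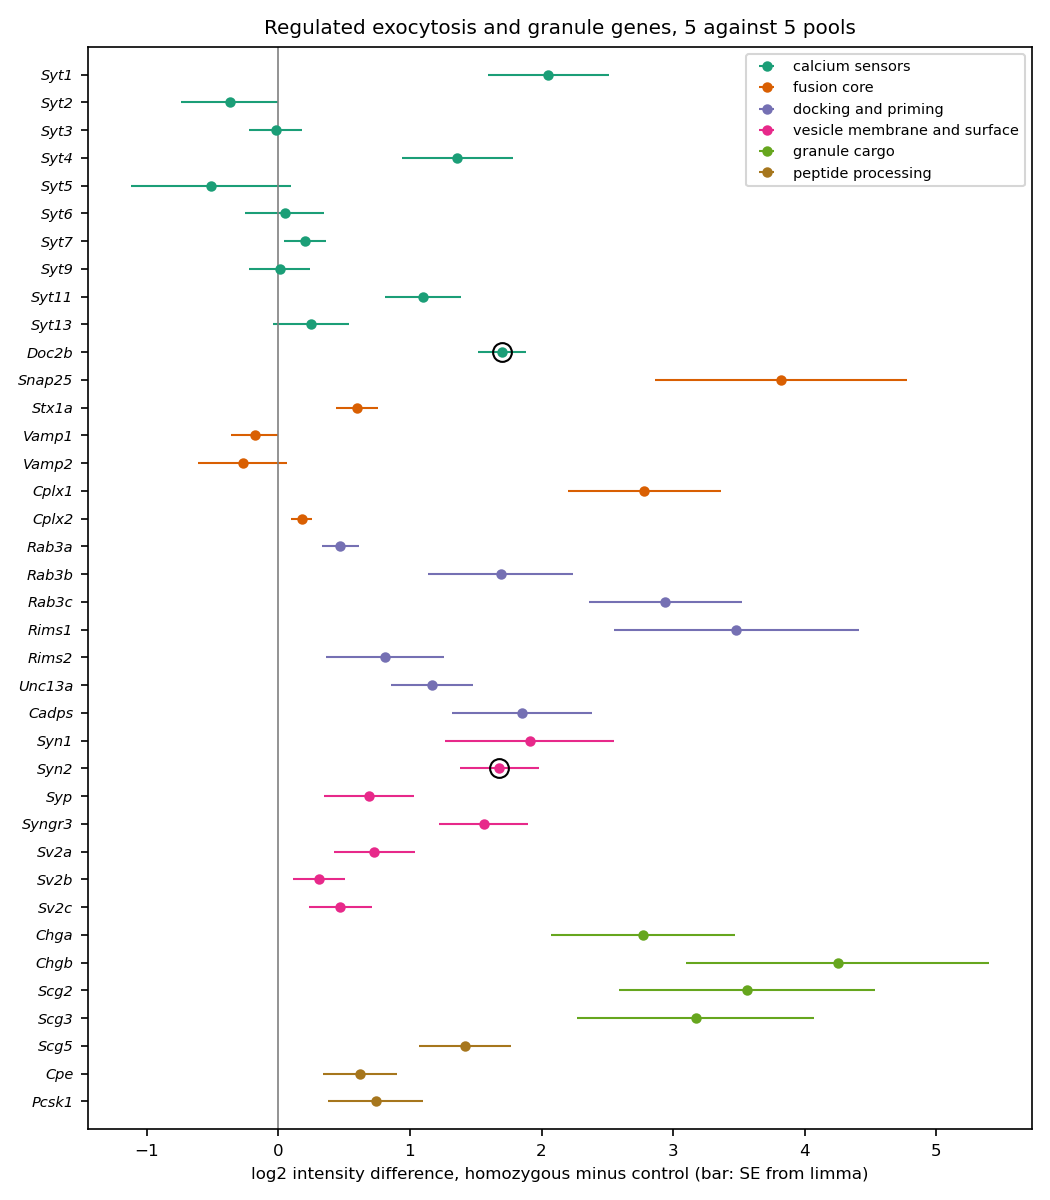
Log2 intensity difference, homozygous minus control, for the 38 measured genes in blocks by role (x axis: log2 difference; bars: SE from limma; 5 pools per genotype). Circles mark Doc2b and Syn2, the 2 genes past the threshold, while Chgb at 4.25 and Snap25 at 3.82 lie farthest right with wide bars.

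The granins are acidic proteins that pack the core of dense granules and are cut into peptides there. Upstream sequence of 3 of them is given because the letters of a cyclic AMP response element, the DNA site of the CREB family, are found in each. The same is given for Syn1 and Pcsk1, which hold them too. The window of the remaining granin gene, Scg3, was searched and held none of the motifs. Each line is the 250 bases before the annotated gene start from the RefSeq table of GRCm38.p6, read 5' to 3' on the gene's strand. Capitals mark TGACGTNA on either strand, and in Syn1 also TTCAGCACC, the left part of the RE1 element that the neuronal repressor REST binds.
Chga, GRCm38.p6, chr12:102554691-102554940, plus strand: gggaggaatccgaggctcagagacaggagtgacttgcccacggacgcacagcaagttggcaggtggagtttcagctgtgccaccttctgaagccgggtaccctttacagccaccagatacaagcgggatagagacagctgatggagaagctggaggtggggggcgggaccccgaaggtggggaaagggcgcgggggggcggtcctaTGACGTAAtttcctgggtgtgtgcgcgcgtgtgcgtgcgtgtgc
Chgb, GRCm38.p6, chr2:132781392-132781641, plus strand: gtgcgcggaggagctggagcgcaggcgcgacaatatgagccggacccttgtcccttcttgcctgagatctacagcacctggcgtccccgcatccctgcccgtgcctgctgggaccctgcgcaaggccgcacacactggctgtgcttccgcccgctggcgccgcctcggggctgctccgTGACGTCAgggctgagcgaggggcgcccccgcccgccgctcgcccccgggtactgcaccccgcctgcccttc
Scg2, GRCm38.p6, chr1:79440027-79440276, minus strand: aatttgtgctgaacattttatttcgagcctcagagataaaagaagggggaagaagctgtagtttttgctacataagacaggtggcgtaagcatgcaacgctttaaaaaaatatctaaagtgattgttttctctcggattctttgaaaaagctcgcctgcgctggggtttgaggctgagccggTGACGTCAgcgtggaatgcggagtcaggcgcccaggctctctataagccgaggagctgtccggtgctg
Syn1, GRCm38.p6, chrX:20920919-20921168, minus strand: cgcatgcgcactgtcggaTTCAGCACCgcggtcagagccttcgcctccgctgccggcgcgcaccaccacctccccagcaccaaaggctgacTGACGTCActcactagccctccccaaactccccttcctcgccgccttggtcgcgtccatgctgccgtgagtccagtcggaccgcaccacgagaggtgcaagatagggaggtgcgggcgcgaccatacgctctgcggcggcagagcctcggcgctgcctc
Pcsk1, GRCm38.p6, chr13:75089607-75089856, plus strand: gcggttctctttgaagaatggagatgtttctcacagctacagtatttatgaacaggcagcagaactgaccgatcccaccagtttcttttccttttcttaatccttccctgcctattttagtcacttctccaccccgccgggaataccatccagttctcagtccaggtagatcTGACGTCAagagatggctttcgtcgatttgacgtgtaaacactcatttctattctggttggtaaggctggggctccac

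The full palindrome TGACGTCA was in the windows of Chgb, Scg2, Syn1 and Pcsk1, and Chga held TGACGTAA 44 to 37 bases before the start. In Chgb it lay 72 to 65 bases before the start and in Scg2 68 to 61. The RefSeq table matched 29 of the 39 genes with 38 start windows, of which 4 held TGACGTCA, against 1.55% of all 32851 windows. TGACGTNA was in 6 of the 38, the sixth being Rab3a with TAACGTCA, the reverse complement form, against 2.52% of all windows. TTCAGCACC was in the Syn1 window alone among the 38 (0.301% of all windows), and GGACAGCGC, the right part of RE1, in none of them (0.304%). All searches covered both strands, and every match of the palindrome is also a match of TGACGTNA. A match is a description of letters only. The log2 differences of the genes with TGACGTNA were 4.25 (Chgb), 3.56 (Scg2), 2.77 (Chga), 1.91 (Syn1), 0.74 (Pcsk1) and 0.47 (Rab3a), so genes with these letters had both small and large differences.

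Chgb (chromogranin B) had log2 values of 12.02, 11.69, 12.26, 9.89 and 11.59 in homozygous pools 1 to 5 and 4.38, 9.37, 4.87, 7.57 and 10.02 in control pools 1 to 5. Homozygous pools 1, 2, 3 and 5 lay above every control pool, while homozygous pool 4 fell between control pools 2 and 5. The mean was 11.49 ± 0.93 (SD, n = 5) against 7.24 ± 2.56 (SD, n = 5), a log2 difference of 4.25 ± 1.15 (SE) or 19-fold, which did not pass (limma adjusted p = 0.112; exact two-sided permutation p = 0.0159). The control pools themselves spanned 5.64 log2 units. Scg2 (secretogranin II, the precursor of secretoneurin) had 9.46, 10.01, 10.34, 8.01 and 10.39 in homozygous pools 1 to 5 and 4.00, 7.64, 4.00, 6.21 and 8.56 in control pools 1 to 5, with control pools 1 and 3 at the floor, so that its difference is understated. Its mean was 9.64 ± 0.98 (SD, n = 5) against 6.08 ± 2.08 (SD, n = 5), a difference of 3.56 ± 0.97 (SE) (limma adjusted p = 0.115; exact permutation p = 0.0159). Homozygous pool 4 was again the only one that reached into the control range.

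Chga (chromogranin A) had the control pools in the same order, with 9.77, 10.22, 10.79, 8.25 and 9.30 in homozygous pools 1 to 5 and 5.49, 7.22, 5.93, 6.88 and 8.97 in control pools 1 to 5. The mean was 9.67 ± 0.97 (SD, n = 5) against 6.90 ± 1.35 (SD, n = 5), differing by 2.77 ± 0.70 (SE) (limma adjusted p = 0.0964; exact permutation p = 0.0159), and homozygous pool 4 lay below control pool 5. Scg3 (secretogranin III, which binds granins to granule membranes) had 10.01, 8.72, 10.01, 8.71 and 8.05 in homozygous pools 1 to 5 and 4.00, 8.52, 4.00, 6.73 and 6.41 in control pools 1 to 5. Here control pool 2, not 5, was the highest control, and homozygous pool 5 was the one below it. The Scg3 mean was 9.10 ± 0.87 (SD, n = 5) against 5.93 ± 1.94 (SD, n = 5), a difference of 3.17 ± 0.90 (SE) (limma adjusted p = 0.127; exact permutation p = 0.0159), again understated by 2 control arrays at the floor. All 4 granins thus differed by 2.77 or more without passing the test over all genes, each with 4 of 5 homozygous pools above all control pools.

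Among the processing genes, Cpe (carboxypeptidase E, which trims peptide ends) had 12.68, 12.43, 12.80, 12.40 and 11.76 in homozygous pools 1 to 5 and 11.01, 12.03, 11.73, 11.80 and 12.42 in control pools 1 to 5. Its groups overlapped, with a difference of 0.62 ± 0.28 (SE) (limma adjusted p = 0.325). Scg5, which encodes the chaperone 7B2 of the convertase PCSK2, had a mean of 8.40 ± 0.56 (SD, n = 5) against 6.99 ± 0.59 (SD, n = 5) and differed by 1.42 ± 0.35 (SE) (limma adjusted p = 0.0928). Its control pool 2 at 7.99 lay above homozygous pools 2 and 5 at 7.93 and 7.96. Pcsk1, the prohormone convertase that starts the cutting of precursors, ran only from 4.00 to 5.64 with 3 control arrays at the floor, and differed by 0.74 ± 0.36 (SE) (limma adjusted p = 0.363). The 3 measured processing genes of the set thus differed by 0.62 to 1.42, less than the granins, though that contrast was not tested. Pcsk1 lay too near the floor to show much difference.

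In the fusion core, Snap25, the neuronal SNARE of the plasma membrane, had 11.09, 9.94, 11.33, 10.41 and 9.35 in homozygous pools 1 to 5 and 4.23, 9.47, 4.77, 7.48 and 7.07 in control pools 1 to 5. Only control pool 2 reached the homozygous range, just above homozygous pool 5, while control pools 1 and 3 were close to the floor. The mean was 10.42 ± 0.81 (SD, n = 5) against 6.60 ± 2.13 (SD, n = 5), a difference of 3.82 ± 0.96 (SE) or 14.1-fold (limma adjusted p = 0.0952; exact permutation p = 0.0159). A second Snap25 probe set was at the floor on 9 of 10 arrays and gives no level.

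Cplx1 (complexin 1, which clamps and then promotes SNARE fusion) had 9.02, 9.27, 9.24, 9.31 and 9.46 in homozygous pools 1 to 5 and 5.66, 8.55, 4.93, 6.79 and 6.47 in control pools 1 to 5. The homozygous pools lay within 0.44 of each other and all above the controls, which spread over 3.62. The mean was 9.26 ± 0.16 (SD, n = 5) against 6.48 ± 1.37 (SD, n = 5), a difference of 2.78 ± 0.58 (SE) (limma adjusted p = 0.0636; exact permutation p = 0.00794, the smallest that 5 against 5 pools can give). A second Cplx1 probe set differed by 2.75 and another by 0.30. Its paralogue Cplx2 differed by 0.18 ± 0.08 (SE) with all 10 pools between 8.89 and 9.30. The other core SNARE genes differed less. Stx1a (syntaxin 1A) differed by 0.60 ± 0.16 (SE) on its brighter probe set and by 0.01 on the dimmer one. The vesicle SNARE Vamp2 had a brighter probe set at -0.27 and a dimmer one at 0.77, so its direction is not settled here. Vamp1 differed by -0.18 on its brighter probe set and by 0.30 on a dimmer one near the floor. The difference between paralogues was not tested.

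Doc2b had the smallest p of all 38 genes. It encodes a soluble double C2-domain protein that responds to low calcium, and had 9.61, 9.52, 9.82, 9.37 and 9.82 in homozygous pools 1 to 5 and 7.49, 8.16, 8.11, 7.60 and 8.27 in control pools 1 to 5. All homozygous pools exceeded all control pools by at least 1 log2 unit, and neither group spread over more than 0.78. Doc2b rose from 7.93 ± 0.35 to 9.63 ± 0.19 (SD, n = 5 each), by 1.70 ± 0.18 (SE) or 3.25-fold (limma adjusted p = 0.0176; exact permutation p = 0.00794). The dimmer Doc2b probe set differed by 0.53. Dropping homozygous pool 3 ended the call (1.65, limma adjusted p = 0.054), as did dropping control pool 3 (1.75, limma adjusted p = 0.0777). Dropping all 3 Xist-high pools gave 1.64 (limma adjusted p = 0.155).

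Syt1, the fast calcium sensor of synaptic vesicles, had 10.21, 9.46, 10.65, 9.44 and 10.12 in homozygous pools 1 to 5 and 7.34, 9.53, 7.16, 7.96 and 7.62 in control pools 1 to 5. Control pool 2 lay above homozygous pools 2 and 4, and the other 4 control pools lay below all homozygous pools. Its mean was 9.98 ± 0.52 (SD, n = 5) against 7.92 ± 0.95 (SD, n = 5), a difference of 2.05 ± 0.46 (SE) (limma adjusted p = 0.0744; exact permutation p = 0.0238). Syt11, a synaptotagmin that does not bind calcium, had 10.86, 10.95, 11.52, 10.82 and 10.88 in homozygous pools 1 to 5 and 10.64, 10.44, 9.45, 9.77 and 9.21 in control pools 1 to 5. On this brightest probe set the 2 groups did not overlap, with a difference of 1.10 ± 0.29 (SE) (limma adjusted p = 0.104). Its 4 other probe sets differed by 0.43 to 1.16, and on each of them the groups overlapped. On the brightest of these, control pool 2 at 10.01 lay above homozygous pools 2, 4 and 5 at 9.60, 9.91 and 9.47. Syt4, found on dense-core granules, differed by 1.36 ± 0.42 (SE) (limma adjusted p = 0.159), with control pool 2 at 7.85 above 3 homozygous pools.

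The remaining synaptotagmins showed little difference. Syt7, a slow, high-affinity calcium sensor, differed by 0.20 ± 0.16 (SE), Syt9 by 0.01 ± 0.23 (SE) and Syt13 by 0.25 ± 0.29 (SE). Syt3 (-0.02), Syt5 (-0.51) and Syt2 (-0.37) were lower on their brightest probe set. The other Syt2 probe sets differed by 0.62 and 0.38, so the direction of Syt2 is not settled here. Syt6 was at the floor on 6 of 10 arrays. None of these 7 passed, with limma adjusted p of 0.617 to 1. Of the 11 synaptotagmin and Doc2 genes, 1 rose, against 0.539% of all genes, and 10 did not pass. Their median difference was 0.20, against 0.00 over all genes. They are plotted under calcium sensors, although not all of them bind calcium, Syt11 for example.

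Docking and priming genes were all higher in homozygous pools on the brightest probe set, but none passed. In 7 of 7 the difference was above 0, against 50% of all genes, with a median of 1.69 against 0.00. Rab3c, a vesicle GTPase, had 9.15, 8.07, 9.93, 8.58 and 9.07 in homozygous pools 1 to 5 and 5.02, 7.92, 5.07, 5.91 and 6.17 in control pools 1 to 5. Its groups did not overlap, though control pool 2 came within 0.15 of homozygous pool 2. The mean was 8.96 ± 0.70 (SD, n = 5) against 6.02 ± 1.18 (SD, n = 5), a difference of 2.94 ± 0.58 (SE) (limma adjusted p = 0.0558; exact permutation p = 0.00794). Other Rab3c probe sets differed by 2.54, 1.41, 0.05 and 0.00, the last 2 at the floor on 9 or 10 arrays. When all 45037 probe sets were tested as separate features, the one at 1.41 passed (limma adjusted p = 0.00844), with 4 of 5 control arrays at the floor, which narrows their spread. In that fit 0.231% of probe sets passed, and the brightest Doc2b probe set (limma adjusted p = 0.0128) was the only other of the 83.

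Rab3b had 8.58, 7.72, 8.08, 6.80 and 7.41 in homozygous pools 1 to 5 and 4.28, 6.02, 6.52, 6.0 and 7.30 in control pools 1 to 5. Control pool 5 lay above homozygous pool 4, and the difference was 1.69 ± 0.55 (SE) (limma adjusted p = 0.176). Rab3a, the major Rab3 of the brain, had 10.61, 10.70, 10.45, 10.39 and 10.94 in homozygous pools 1 to 5 and 10.37, 10.27, 10.16, 10.20 and 9.76 in control pools 1 to 5. Its difference was small, 0.47 ± 0.14 (SE) (limma adjusted p = 0.138), yet the groups did not overlap on this brightest probe set. The dimmer Rab3a probe set differed by 0.48, and on it the groups overlapped. There homozygous pool 5 at 6.51 lay below every control pool except control pool 1 at 6.16. The remaining homozygous pools lay above all control pools, of which control pool 5 at 7.42 was the highest. Rab3a, Rab3b and Rab3c thus differed by 0.47, 1.69 and 2.94 on their brightest probe sets, and their paralogue Rab3d, from the further list of release machinery, by 0.29 (limma adjusted p = 0.701).

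Rims1, the active-zone scaffold that ties Rab3 to priming, had 10.39, 5.74, 9.94, 9.62 and 11.11 in homozygous pools 1 to 5 and 5.54, 7.01, 5.93, 5.47 and 5.46 in control pools 1 to 5. Homozygous pool 2 was at the level of the control pools, and the other 4 homozygous pools lay far above them. The mean was 9.36 ± 2.10 (SD, n = 5) against 5.88 ± 0.66 (SD, n = 5), a difference of 3.48 ± 0.93 (SE) (limma adjusted p = 0.11; exact permutation p = 0.0238). Without homozygous pool 2 the difference was 4.38 and passed (limma adjusted p = 0.0101). The dimmer Rims1 probe set differed by 1.77, with homozygous pool 2 at 5.83 beside 6.49 to 7.81 in the others.

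Cadps, the priming factor CAPS1 of dense-core granules, had 10.01, 9.48, 10.48, 10.10 and 9.62 in homozygous pools 1 to 5 and 7.29, 10.21, 7.61, 7.75 and 7.61 in control pools 1 to 5. Control pool 2 lay above all homozygous pools except pool 3, while the other 4 control pools were 7.75 or lower. Its difference was 1.85 ± 0.53 (SE) (limma adjusted p = 0.132), and 2.37 without control pool 2, where it passed (limma adjusted p = 0.00886). Unc13a (Munc13-1, the priming factor of clear vesicles) differed by 1.17 ± 0.31 (SE) and Rims2 by 0.81 ± 0.45 (SE) (limma adjusted p = 0.111 and 0.44).

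Among the vesicle membrane and surface genes, Syn2 (synapsin II, which tethers reserve vesicles) had 8.20, 7.50, 8.23, 7.15 and 7.87 in homozygous pools 1 to 5 and 5.76, 6.90, 5.71, 6.25 and 5.95 in control pools 1 to 5. All homozygous pools exceeded all control pools, the narrowest gap being 0.25 between homozygous pool 4 and control pool 2. Syn2 rose from 6.11 ± 0.49 to 7.79 ± 0.46 (SD, n = 5 each), by 1.68 ± 0.30 (SE) (limma adjusted p = 0.0472; exact permutation p = 0.00794). Leaving out any single pool other than homozygous pool 2 or control pool 2 ended this call, with differences of 1.57 to 1.84 and limma adjusted p of 0.0532 to 0.134. A further 2 Syn2 probe sets gave 1.88 and 2.22, and 3 more sat at the floor on 9 or 10 arrays. With all probe sets tested as separate features, no Syn2 probe set passed (limma adjusted p = 0.0684 or more).

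Syn1 (synapsin I) had 8.85, 7.53, 8.62, 7.39 and 6.90 in homozygous pools 1 to 5 and 4.00, 7.04, 5.45, 6.62 and 6.65 in control pools 1 to 5. Its control pool 1 was at the floor and control pool 2 lay above homozygous pool 5, with a difference of 1.91 ± 0.64 (SE) (limma adjusted p = 0.181). Syngr3, a synaptogyrin of synaptic vesicles, differed by 1.56 ± 0.34 (SE) (limma adjusted p = 0.0681), and homozygous pools at 7.63 to 9.29 did not overlap control pools at 6.37 to 7.34. Syp (synaptophysin) differed by 0.69 ± 0.34 (SE). The SV2 transporters Sv2a, Sv2b and Sv2c differed by 0.73, 0.31 and 0.47. All 7 genes of this role were higher on the brightest probe set, against 50% of all genes. Of them 1 rose, against 0.539% of all genes, and 6 did not pass.

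**Figure D2:**
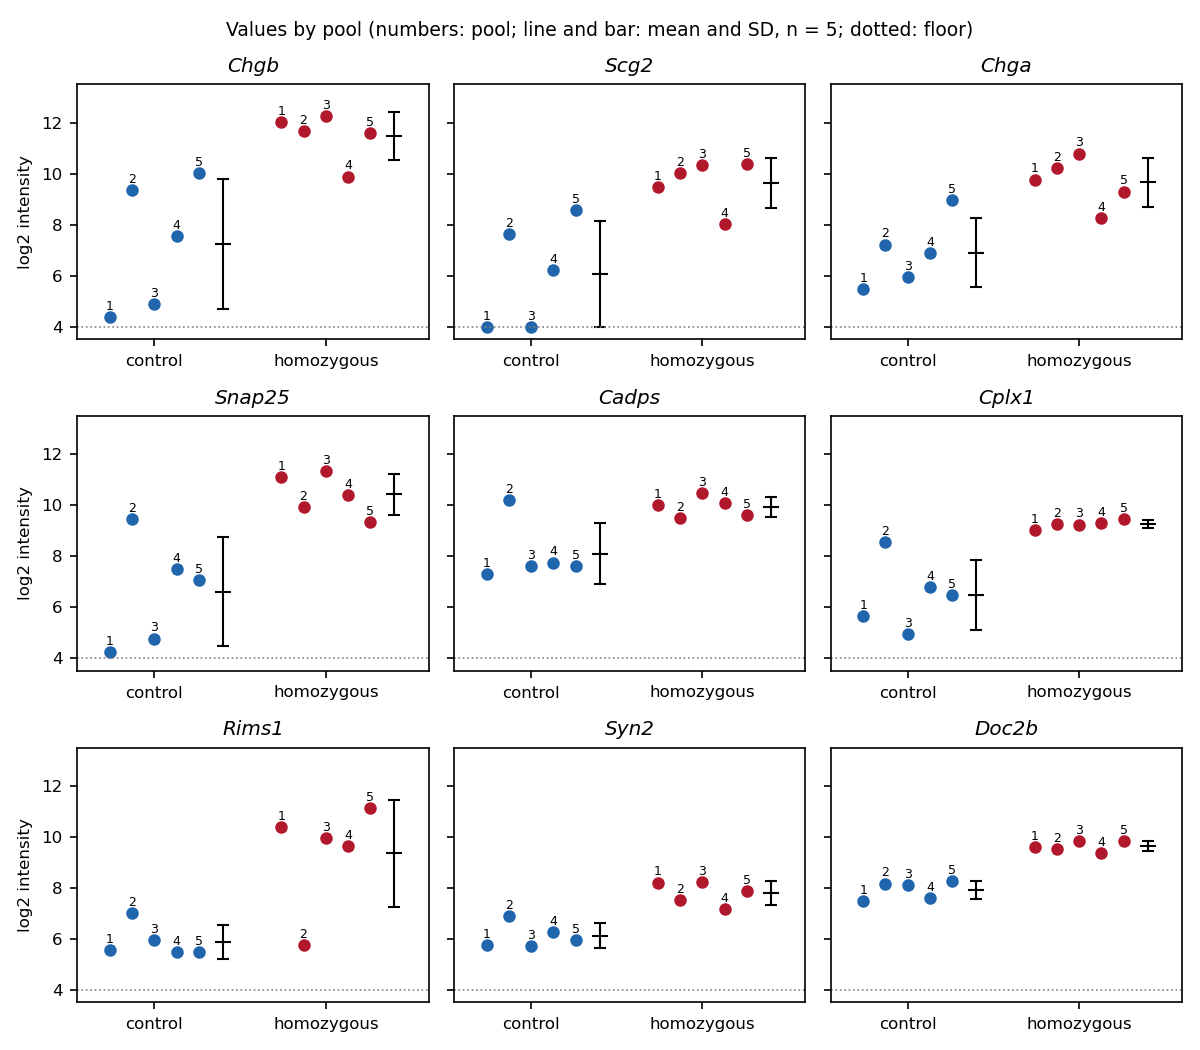
Log2 intensity of 9 genes in each pool (numbers give the pool, black lines the mean and SD of 5 pools, the dotted line the floor of 4.00). Control pool 2 lies near or within the homozygous range for Snap25 and Cadps, control pool 5 is the highest control for the granins Chgb, Scg2 and Chga, and Doc2b shows a tight split.

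Most probe sets pointed the same way when each was read alone. Of 83 member probe sets, 72 were higher in homozygous pools, 7 lower and 4 at 0, against 48.9% of all probe sets higher. A difference of 1 or more was found for 31 of them, which represent 20 genes, 1 more than by the brightest probe sets because a second Rims2 probe set differed by 1.26. Several probe sets were present for 23 members, and in 5 of these at least 1 pointed the other way. At the floor on 9 or more arrays were 10 of the 83.

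Pools of the same genotype differed widely, and the highest control pool was not the same for all genes. Of the 19 members with a difference of 1 or more, control pool 2 was the highest control for 13, including Snap25, Syt1, Cadps, Cplx1, Rab3c and Scg3. Control pool 5 was the highest for 5, Chga, Chgb, Scg2, Rab3b and Doc2b, and control pool 1 for Syt11 on its brightest probe set. Control pool 1 was the lowest for 12 of the 19 and control pool 3 for 5. On the homozygous side, pool 3 was the highest for 11 and pool 4 the lowest for 10. Chgb in control pool 5 (10.02) and control pool 2 (9.37) was above 9, and in control pools 1 and 3 below 5. Cadps was at 10.21 in control pool 2 but 7.61 in control pool 5.

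**Figure D3:**
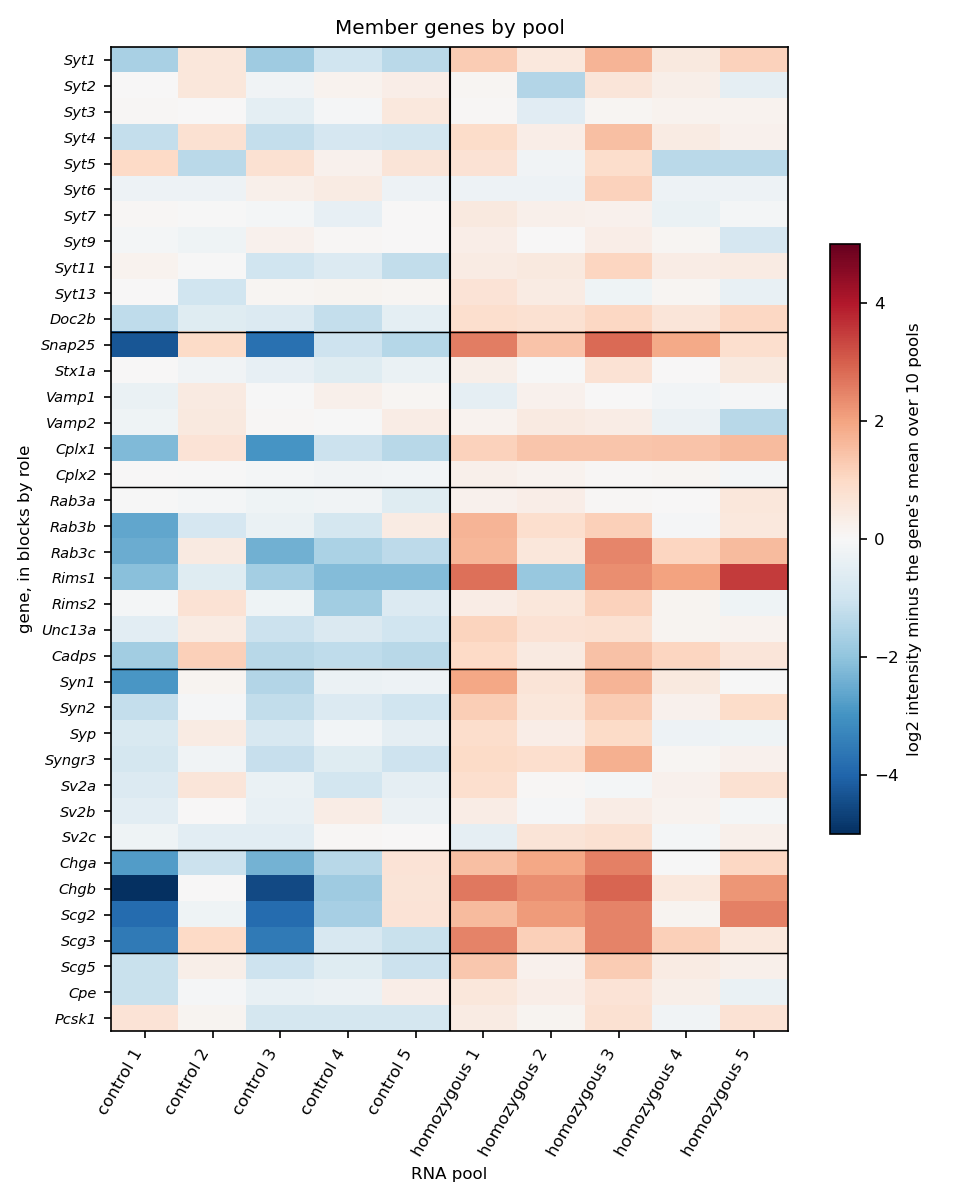
Each of the 38 genes in each pool, as log2 intensity minus that gene's mean over 10 pools (colour: log2 units; rows in blocks by role; the vertical line parts control from homozygous pools). Control pool 2 is the highest control for 13 of the 19 genes with a difference of 1 or more, and Chgb and Snap25 in control pools 1 and 3 are among the lowest values.

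Markers of the cells that use this machinery were mostly higher in homozygous pools as well, against 50% of all genes, but none passed the test. In the list of sympathetic neuron and chromaffin cell markers, 10 of 11 genes were measured, 8 were higher in homozygous pools and none passed, and the summed intensity ran from 9446 to 17658 in homozygous and from 3877 to 7169 in control pools. The 2 lower genes were Gata3 (-0.60) and Eya1 (-0.13), which are also used in the kidney, as is Ddc (1.65). Th, the first enzyme of catecholamine synthesis, was 8.76 to 10.88 in homozygous pools and 4.57, 7.81, 4.35, 6.31 and 8.59 in control pools 1 to 5. The mean of the list in control pools 1 to 5 was 6.45, 8.73, 6.68, 7.53 and 7.97, and that of the exocytosis genes was 6.48, 7.69, 6.54, 6.99 and 7.19. The control pools had the same order in these 2 lists, which have no gene in common, but the homozygous pools did not: the exocytosis mean was lowest in pool 4 (7.92) and the sympathetic mean in pool 5 (8.95). The neuronal list, at 5.87, 9.53, 6.74, 8.51 and 7.40 in control pools 1 to 5, had control pool 4 above control pool 5, unlike the other two. All 9 general neuronal markers were higher in homozygous pools, with a summed intensity of 7069 to 21990 against 905 to 9689, and none passed. The median log2 difference was 2.65 in the neuronal and 1.68 in the sympathetic list, beside 0.96 for the exocytosis genes. At an unadjusted p under 0.05, 8 neuronal and 8 sympathetic markers were higher, against 9.83% of all genes. The part of these markers in the differences of the exocytosis genes was not tested.

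The adrenal cortex list (6 of 6 genes measured, all higher and none passing) differed between control pools 2 and 5, which were the highest controls for most exocytosis genes. Its mean was 10.88 in control pool 5 and 4.98 in control pool 2, where Hsd3b1 and Nr5a1, which marks steroid-producing cells, were at or near the floor. Its summed intensity ran from 4060 to 36735 in homozygous and from 254 to 19544 in control pools. The 4 measured Schwann and satellite glia markers had a mean of 9.34 in control pool 2, within the homozygous range of 8.73 to 9.58, and 3 of the 4 were higher in homozygous pools without passing. In the list of cholinergic and motor neuron markers 3 of 4 genes were higher, by 3.95 (Isl1), 1.23 (Chat) and 0.21 (Slc5a7), and none passed. The vesicular acetylcholine transporter gene Slc18a3, from another list, was at the floor on 9 of 10 arrays. Mnx1 of motor neurons was at the floor on all arrays. Isl1 was 12.01 in control pool 2, within its homozygous range of 10.31 to 12.36, and 4.00 to 8.63 in the other control pools. Of the markers of pancreatic islets, which also use granins, Ppy was at the floor on all arrays, Pdx1 on 9 and Gcg on 8. The summed intensity of the 6 measured islet genes was 96 to 149 in homozygous and 129 to 259 in control pools. The spinal cord and brain list summed to 142 to 259 and 122 to 197, with Olig2 at the floor throughout. Skeletal muscle (532 to 6079 against 199 to 7969), gonad (506 to 2324 against 248 to 2116) and urothelium sums (644 to 3408 against 490 to 1616) overlapped between the genotypes. The 4 macrophage markers summed to 2746 to 3601 against 1893 to 2235, and Adgre1 (0.67) and Csf1r (0.60) of them rose. The 7 measured kidney markers were all lower in homozygous pools (3399 to 6291 against 5261 to 11493), and Lrp2 of them fell by 1.73 on the log2 scale (limma adjusted p = 0.039).

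**Figure D4:**
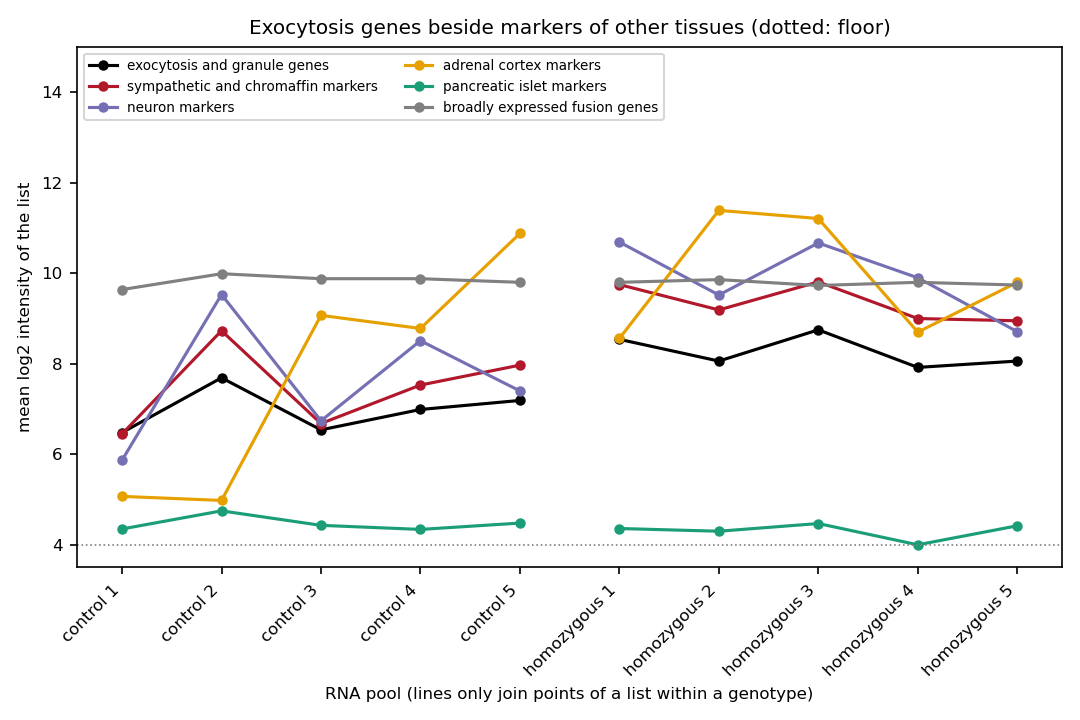
Mean log2 intensity of each list in each pool (y axis: mean log2 intensity; x axis: pool; dotted line: floor). Control pool 2 has the highest control mean of the exocytosis, sympathetic and neuronal lists, adrenal cortex markers are near 5 in control pools 1 and 2, and islet markers stay near the floor.

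Leaving out pools that stood apart kept the direction of the counts over the 38 genes. With both high-actin arrays left out, 33 genes were higher, 20 by 1 or more (3.22% of all genes), and the groups did not overlap in 12 (5.85% of all genes). Without the 3 Xist-high pools, 34 were higher, 18 by 1 or more (4.71%), and 19 did not overlap (8.09%). Without control pools 1 and 2, an alternative chosen after seeing the data, 31 were higher, 21 by 1 or more (3.79%), and 18 did not overlap (8.75%). Fewer pools make separation easier, as the shares over all genes show. Single pools decided how many members passed. There were 12 without control pool 2, namely Syt1, Syt4, Doc2b, Snap25, Cplx1, Rab3c, Unc13a, Cadps, Syn2, Syngr3, Scg3 and Scg5, where 414 of all 18193 genes passed. Without homozygous pool 3 or control pool 3 it was 0 by limma, with 3 of all genes passing in each case. There 22 and 21 members had an unadjusted p under 0.05, as did 2226 and 2252 of all genes. There were 3 without homozygous pool 2 (250 of all genes), and 1 without each of the other single pools (5 to 67 of all genes) or without both high-actin arrays (23 of all genes). Without the 3 Xist-high pools 0 members and 28 of all genes passed in limma, and 18 members and 1641 of all genes had an unadjusted p under 0.05. Without control pools 1 and 2 it was 6 members and 83 of all genes.

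Genes beyond the set were read from 3 further lists, which were chosen with earlier results of these data known. Of 39 measured genes of the release machinery, 28 were higher in homozygous pools (50% of all genes), with a median of 0.30 against 0.00. Of them 1 rose, against 0.539% of all genes, and 38 did not pass. Rimbp2, which links RIM to calcium channels, rose from 6.65 ± 0.47 to 8.31 ± 0.53 (SD, n = 5 each), by 1.66 ± 0.31 (SE; limma adjusted p = 0.0481). The liprin gene Ppfia2 (2.07), the granuphilin gene Sytl4 (1.66), Napb (0.96), Erc2 (0.65) and Syngr1 (0.59) had the next smallest p-values without passing (limma adjusted p = 0.0612 to 0.152). Smaller differences, named after their values were seen, were those of the SNARE-recycling ATPase gene Nsf (-0.20), Napa (-0.13), Unc13b (0.12), Cadps2 (-0.14) and Syn3 (0.06).

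The list named broadly expressed membrane fusion paralogues had 12 of 27 measured genes higher, against 50% of all genes, and a median of -0.04. None of them passed in limma (2 had an unadjusted p under 0.05, as did 15.7% of all genes). The name is a label of the list only, and Sytl1, for example, was at the floor on 7 of 10 arrays. Stx8 (0.34), Stx3 (-0.42), Vamp3 (0.63), Vti1a (-0.39), Ykt6 (-1.09) and Stx2 (0.21) had the smallest p-values. Snap23, the paralogue of Snap25 in non-neuronal cells, differed by -0.31, beside 3.82 for Snap25. The mean of this list was 9.64 to 9.99 in control and 9.73 to 9.86 in homozygous pools, so the pools that differed by over 2 units in the mean of the exocytosis genes lay within 0.35 here.

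Of 22 measured genes for further granule cargo, peptide processing and transmitter loading, 19 were higher, against 50% of all genes. Their median was 0.95, against 0.00 over all genes, and 1 rose, against 0.539% of all genes. That gene was the peptide Npy, which rose by 2.79 ± 0.35 (SE; limma adjusted p = 0.0222) with 11.19 to 12.64 in homozygous and 8.68 to 9.80 in control pools. The granule membrane genes Ptprn (2.36) and Ptprn2 (2.10), the cytochrome b561 gene Cyb561 (1.42), which supplies electrons to amine and peptide enzymes in granules, and the cargo genes Vgf (2.31) and Cartpt (2.63) followed (limma adjusted p = 0.0753 to 0.167). The convertase Furin of constitutive secretion differed by -0.03 and the vesicular acetylcholine transporter gene Slc18a3 was at the floor on 9 of 10 arrays. Penk, the enkephalin precursor, was lower in homozygous pools by 0.36 without passing (12.46 ± 0.29 against 12.82 ± 0.11, SD, n = 5 each; limma adjusted p = 0.232).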

How the data were processed

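RNA of 5 homozygous and 5 control pools was hybridized to 1 array each. The authors deposited 1 linear intensity per probe set and array; the trimmed mean without the highest and lowest 2% is 500 on all arrays, from the values. Not given in the sources used here: software, background correction and genome build. The series design text describes kidney mesenchyme of an earlier stage and does not match the sample labels, which were followed.

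Of 45101 probe sets 64 controls were left out, and 34945 had 1 gene symbol in the platform annotation. Intensities under 16 were set to 16 and taken to log2. Each gene was represented by its probe set with the highest mean. The comparison of genotypes used lmFit and eBayes with intensity trend (limma 3.58.1, R 4.3.3), two-sided, with Benjamini-Hochberg adjustment over all 18193 genes and a threshold of 0.05, and tested on simulated data. Where arrays sit at the floor, a fold is understated. The number of arrays limits the precision, and no 2 arrays were identical.

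The members and lists were chosen with earlier results of these data known. Of 169 entries in the further lists 157 matched a measured gene. Members given with every pool were those past the threshold, the 14 largest differences and the 3 highest means; from each further list up to 6 genes, those past the threshold and then the smallest p, with examples beyond these chosen after seeing the values. Promoter windows end at the annotated start. Alternatives concerned the probe set per gene, floor, dim genes, normalization, replicate block, variance model, array weights and pools left out.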

Additional observations from a re-analysis of the deposited data

Results flagged for a closer look

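In 4 of 34 groups of 5 pools, 1 pool stood far from the others by Dixon's test over the 17 genes given with every pool, where chance marks about 1 in 20 groups. For Rims1, homozygous pool 2 had 5.74 and the remaining 4 had 9.62 to 11.11. For Chgb, homozygous pool 4 had 9.89 and the rest 11.59 to 12.26. For Syt11, homozygous pool 3 had 11.52 and the rest 10.82 to 10.95. For Cadps, control pool 2 had 10.21 and the remaining 4 had 7.29 to 7.75.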

How the results depend on the processing

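No difference of the 17 genes given with every pool changed sign in any alternative that tested it. Doc2b kept its call in 16 of 20 alternatives (1.11 to 1.78) and Syn2 in 6 of 20 (1.01 to 1.87), with limma adjusted p of 0.00951 to 0.159 and 0.0208 to 0.347. Against 176 genes, 2 members and 2 member probe sets past the threshold, a floor of 32 gave 95, 1 and 1. Adding 16 in place of a floor gave 299, 7 and 7, and array weights gave 951, 15 and 9. Without the dimmest 60% of genes, which left 10 members, the numbers were 108, 1 and 5. The mean of all probe sets gave 109 genes, and without both high-actin arrays 23 genes and 1 member passed. Without the 3 Xist-high pools 28 genes, 0 members (18 at an unadjusted p under 0.05, beside 1641 of all genes) and 1 probe set passed. Without control pools 1 and 2, chosen after seeing the data, 83 genes and 6 members passed. Leaving out each pool in turn gave 3 to 414 genes, 0 to 12 members and 2 to 11 probe sets.

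With the replicate block 1 gene, 0 members and 0 member probe sets passed in limma. At an unadjusted p under 0.05 there were 20 of 38 members beside 1986 of 18193 genes, and 34 of 83 member probe sets beside 3929 of 45037. The numbers in the titles gave no sign of pairing. Same-numbered pools correlated at -0.55 to -0.17 in their deviations from the genotype means, and 0 of 10 arrays correlated best with their own number. These correlations cannot exclude every form of pairing, and the labels state none. Causes of these shifts were not tested. Dim genes near the floor have little measurable range.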

Other observations

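Control pool 2 also held the highest control values of 3 peptide genes of visceral and enteric neurons, named here after their values were seen. Vip was 9.54 there and 5.75 to 7.74 in the other control pools, and 6.77 to 9.52 in homozygous pools. Tac1 was 9.20 there, above all 9 other pools at 4.77 to 8.74. Sst was 9.61 there and 4.00 to 6.55 in the other control pools. Gcg, the glucagon precursor gene, was 7.35 in control pool 2 and at most 4.10 in the other 9 pools.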
